A study of Mus musculus with 7 samples.

Results

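The insulin-like growth factor (IGF) genes examined here were 10 of the 47729 genes counted in forebrain RNA: the ligands Igf1 and Igf2, the receptors Igf1r and Igf2r, the binding proteins Igfbp2, Igfbp3, Igfbp4 and Igfbp5, and the pappalysins Pappa and Pappa2. They were taken by gene symbol, matched to the Ensembl identifier in the count table. The set was chosen on the difference between mutants and controls in these same libraries, so the genotype values of the 10 genes are given as a description. Their calls in the fits over all genes are reported too, but are not read as tests of these genes. RNA came from the forebrains of mice of the strain F1(C57BL/6 X 129Sv) at postnatal day 15 (P15). The 4 control samples were Lhx6+/- and the 3 mutant samples were Lhx6-/-, so the controls carried 1 null copy of Lhx6 and no wild-type group entered the comparison. The null allele, Lhx6tm2Vpa, was carried by the whole animal and not limited to a cell type, and the labels name no treatment. Each sample pooled 2 animals. Control pools were of males or of females, and mutant pools were of females or of both sexes. RNA integrity numbers ran from 9 to 10 in controls and from 9.8 to 10 in mutants. The columns of the count table carry a genotype and a library number but no sex or integrity number, so neither was tied to a library. Whether sex-linked transcripts tell the sex of a pool was not tested. The paper calls the controls littermates of the mutants, but which pools shared a litter is not stated. Nothing states that the pools came from separate litters either. The genotypes were compared as separate groups, and the spread given is that between pools.

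IGF1 and IGF2 are secreted growth factors that signal through the tyrosine kinase receptor IGF1R, while IGF2R takes up IGF2 and carries it to the lysosome. IGF binding proteins hold the ligands in the extracellular space and keep them from the receptor. Pappalysins are secreted metalloproteases that cut certain binding proteins and so free the ligand: PAPP-A (Pappa) is known for cutting IGFBP4 and IGFBP5, and PAPP-A2 (Pappa2) for cutting IGFBP3 and IGFBP5. In the postnatal brain IGF1 is known as a growth and survival factor of neurons, and Lhx6 encodes a LIM-homeodomain transcription factor of interneurons born in the medial ganglionic eminence (MGE).

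Both pappalysins, 2 binding proteins and 1 ligand were higher in the mutants than in every control. Mean normalised counts of Pappa were 8.8-fold, of Pappa2 4.43-fold, of Igfbp3 2.13-fold, of Igfbp5 1.68-fold and of Igf1 1.59-fold those of the controls. The remaining 5 genes, among them both receptors and Igf2, overlapped between the genotypes. In edgeR's fit over all genes, 5 of the 10 were called higher at an adjusted p of at most 0.05 and 0 lower, beside 2.97% of all 19684 tested genes called higher, 1.87% called lower and 4.85% called either way. The 5 genes called were the 5 whose libraries did not overlap between genotypes, which was so for 19.7% of all tested genes. These counts follow from how the set was chosen and nothing is read from them. DESeq2 and limma-voom also called 0 of the 10 lower, as did edgeR at an unadjusted p of at most 0.05. All 10 genes passed the filter on low counts. Their median log2 fold change was 0.37, beside -0.01 over all tested genes.

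The libraries held between 32556304 and 38069151 expected counts. A count of 0 would allow up to 3 counts, which is 0.0788 to 0.0921 CPM, the unit of counts scaled to one common library total. A normalised count here is the count over the effective library size, scaled to the mean library. Values of single libraries are always given in the order 2, 3, 10 and 11 for the controls and 5, 12 and 13 for the mutants. Lhx6 was read first as the check of the labels. Its normalised counts were 615, 522, 476 and 522 in the controls, and 70.9, 76.6 and 70.1 in the mutants. The label and the gene's level went together in every library, with a log2 fold change of -2.88 (SE 0.14, edgeR adjusted p = 5.99e-05). Forebrain neuron markers summed to 77177 to 88467 normalised counts in controls and 88153 to 106368 in mutants, while markers of hindbrain and cerebellum summed to 20.1 to 48.2 over all 7 libraries. In bulk RNA, more cells of a type and more RNA per cell cannot be told apart.

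The 4 binding protein genes of the set lie at 3 places in the genome (GRCm38). Igfbp2 (chr1:72824503-72852474, plus strand) and Igfbp5 (chr1:72857932-72874884, minus strand) are neighbours that run towards each other, with 5457 bases between them. Igfbp3 (chr11:7206086-7213923, minus strand) lies 3539 bases from Igfbp1. Igfbp4 (chr11:99041244-99054392, plus strand) lies elsewhere on chromosome 11. The 250 bases before their transcription starts, from RefSeq on GRCm38.p6, are printed because 2 of the 4 genes were higher in mutants and 2 were not. Capitals mark matches, on either strand, to any of 5 motifs. The GC box was searched as GGGCGG and the TATA box as TATAAA. The AP-1 motif was searched as TGANTCA. The cyclic AMP response element was searched in full as TGACGTCA. Its shorter form, which the full element contains, was searched as TGACG.
Igfbp3, chr11:7213924-7214173, minus strand: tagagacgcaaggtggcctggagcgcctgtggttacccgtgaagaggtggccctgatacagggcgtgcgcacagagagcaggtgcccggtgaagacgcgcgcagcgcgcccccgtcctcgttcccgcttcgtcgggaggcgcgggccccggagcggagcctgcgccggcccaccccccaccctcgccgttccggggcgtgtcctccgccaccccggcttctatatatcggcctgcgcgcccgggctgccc
Igfbp5, chr1:72874866-72875115, minus strand: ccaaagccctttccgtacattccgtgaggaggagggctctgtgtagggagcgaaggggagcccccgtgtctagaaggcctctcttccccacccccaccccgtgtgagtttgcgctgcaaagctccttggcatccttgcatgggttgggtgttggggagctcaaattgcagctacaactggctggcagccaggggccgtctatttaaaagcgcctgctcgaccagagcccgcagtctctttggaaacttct
Igfbp2, chr1:72824230-72824479, plus strand: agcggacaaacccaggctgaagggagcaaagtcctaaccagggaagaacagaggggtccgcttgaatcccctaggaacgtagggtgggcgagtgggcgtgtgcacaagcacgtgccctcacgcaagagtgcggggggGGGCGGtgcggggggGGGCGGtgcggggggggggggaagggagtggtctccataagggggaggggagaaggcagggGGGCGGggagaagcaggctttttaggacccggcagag
Igfbp4, chr11:99040994-99041243, plus strand: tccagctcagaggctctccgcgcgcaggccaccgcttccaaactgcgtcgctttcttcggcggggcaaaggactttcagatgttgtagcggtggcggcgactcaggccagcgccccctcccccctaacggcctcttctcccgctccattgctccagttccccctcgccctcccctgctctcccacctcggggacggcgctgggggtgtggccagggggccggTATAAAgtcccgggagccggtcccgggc
The printed window of Igfbp2 held 3 GC boxes and that of Igfbp4 held 1 TATA box. No letters of the 5 motifs were found in the windows of Igfbp3 or Igfbp5. Of 32851 RefSeq windows of the same length, 32.7% held the GC box, 12.4% the TATA box and 6.75% the AP-1 motif. The full cyclic AMP response element was in 1.55% of them and its shorter form in 17.8%. GC content was 73.2% for Igfbp3, 58.8% for Igfbp5, 67.2% for Igfbp2 and 69.2% for Igfbp4, beside a median of 52.4% over all windows. CpG pairs numbered 32, 10, 14 and 22 in that order, beside a median of 6. The last 19 bases of the Igfbp5 window lie in its annotated exon. RefSeq gives Igfbp2 a second, downstream start, and the 250 bases before that one (chr1:72825137-72825386) held 1 AP-1 match and no GC box, with a GC content of 56.4% and 11 CpG pairs. That window is not printed since 65 of its bases lie in annotated Igfbp2 exons. These matches describe the letters only. A window was found for 9 of the 10 genes, and none for Pappa.

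Pappa (chr4:65124174-65357509, plus strand) encodes the protease known for cutting IGFBP4. Its normalised counts were 29.6, 22.1, 34.5 and 42.7 in the controls. In the mutants they were 301, 255 and 295. The gene was near the low end of the measured range in controls and every mutant lay far above every control. Means were 32.2 ± 8.65 (SD, n = 4) and 284 ± 25.3 (SD, n = 3), a log2 fold change of 3.13 (SE 0.21). That was the 28th largest increase among the 19684 tested genes. Within libraries 2, 3 and 5 the log2 difference was 3.54 and within libraries 10 to 13 it was 2.83. Controls 2 and 3 were the lowest of all libraries.

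Pappa2 (chr1:158711727-158980490, minus strand) encodes the second pappalysin. Controls had 182, 143, 123 and 109 normalised counts. Mutants had 860, 440 and 546. Again no mutant overlapped a control, but mutant library 5 stood well above the other two, and the controls of the same run of numbers, 2 and 3, were also the higher controls. Means were 139 ± 31.9 (SD, n = 4) and 616 ± 219 (SD, n = 3), a log2 fold change of 2.15 (SE 0.25) and the 84th largest increase. Taken within libraries 2, 3 and 5 the log2 difference was 2.41, and within 10 to 13 it was 2.09. Pappa2 shares 310 exon bases, 3.01% of its own, with the lincRNA gene 1600012P17Rik on the same strand, so a small part of its count is uncertain. Pappa and Pappa2 lie beside Astn2 and Astn1, at 23293 and 19945 bases.

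**Figure D1:**
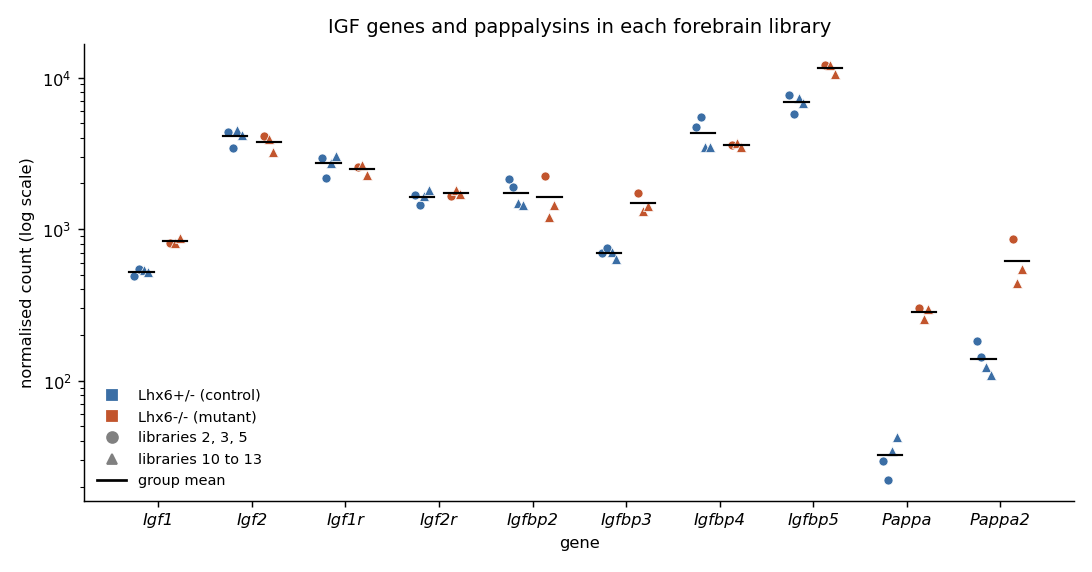
Normalised counts (log axis) of the 10 genes in each library, with controls in blue, mutants in orange, circles for libraries 2, 3 and 5, triangles for libraries 10 to 13, and a bar at each group mean. Mutants lie above all controls for Igf1, Igfbp3, Igfbp5, Pappa and Pappa2, and the genotypes overlap for the other 5 genes.

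Among the binding proteins, Igfbp3, which encodes the main carrier of IGFs in blood, was the one with the largest difference. Controls had 700, 755, 709 and 634 normalised counts. Mutants had 1726, 1309 and 1424. The controls lay close together, with a coefficient of variation of 7.12%, and the lowest mutant was well above the highest control. Means were 700 ± 49.8 (SD, n = 4) and 1487 ± 215 (SD, n = 3), and the log2 fold change was 1.09 (SE 0.11). Within libraries 2, 3 and 5 it was 1.25 and within libraries 10 to 13 it was 1.02.

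Igfbp5, which encodes a binding protein that also attaches to extracellular matrix, had the most counts of the set. Counts were 7688, 5776, 7277 and 6802 in the controls. They were 12054, 12144 and 10584 in the mutants. The 3 mutants were all above the highest control, library 2. Means of 6886 ± 824 (SD, n = 4) and 11594 ± 876 (SD, n = 3) gave a log2 fold change of 0.75 (SE 0.11), with 0.84 and 0.69 within the lower and the higher run of library numbers.

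Its neighbour Igfbp2, which encodes a binding protein abundant in the developing brain, was not called. Counts were 2130, 1882, 1480 and 1433 in the controls. They were 2237, 1210 and 1434 in the mutants. The genotypes overlapped over nearly the whole range, and the high values were those of libraries 2, 3 and 5 in either genotype. The log2 fold change was -0.09 (SE 0.22). The lower run of library numbers alone gave 0.16 and the higher run -0.14, so its sign was not the same in the 2 runs.

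Igfbp4 encodes the binding protein that is the best known substrate of PAPP-A. Counts were 4744, 5502, 3464 and 3473 in the controls. Mutants had 3587, 3677 and 3474. The mutants lay close together within the range of the controls, and controls 2 and 3 stood above all other libraries. The log2 fold change was -0.26 (SE 0.17), with -0.51 within libraries 2, 3 and 5 and 0.04 within libraries 10 to 13. Of its 36-base words, the length of the reads, 4.5% also occur in other counted genes, more than in any other gene of the set.

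Of the ligands, Igf1 (chr10:87858265-87937042, plus strand) had 491, 547, 533 and 517 normalised counts in the controls. In the mutants it had 806, 805 and 880. Both groups were tight and far apart relative to their spread. Means were 522 ± 24.0 (SD, n = 4) and 830 ± 42.8 (SD, n = 3), a log2 fold change of 0.67 (SE 0.09). The difference was 0.63 within the lower run of library numbers and 0.68 within the higher run, the closest pair of values among the 5 called genes.

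Igf2 (chr7:142650766-142666816, minus strand), the imprinted ligand gene, had 4363, 3449, 4527 and 4203 normalised counts in the controls. Mutants had 4112, 3916 and 3231. The genotypes overlapped, and the log2 fold change of -0.14 (SE 0.12) was close to its standard error. Within libraries 2, 3 and 5 the value was 0.07 and within libraries 10 to 13 it was -0.29. The antisense gene Igf2os covers 98 exon bases of Igf2, or 1.71%, and the strand setting of the counting is not given in the sources used here. Choroid plexus markers, which include the transport protein Ttr, summed to 4781 to 10183 in controls and 2432 to 7850 in mutants, with 0 of 8 called by edgeR, DESeq2 or limma-voom and 1 at an unadjusted edgeR p of at most 0.05. Leptomeningeal markers summed to 5003 to 6599 and 5531 to 7373, with 0 of 8 called by edgeR, 2 at an unadjusted p, 1 by DESeq2 and 0 by limma-voom. Both tissues are known to make IGF2 and the part of either in these levels was not tested.

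The 2 receptor genes were not called. Igf1r (chr7:67952827-68233668, plus strand) had 2923, 2165, 2738 and 3028 normalised counts in the controls and 2574, 2636 and 2266 in the mutants. All 3 mutants lay within the range of the controls. Its log2 fold change was -0.12 (SE 0.12), with 0.02 and -0.23 within the lower and the higher run. Igf2r (chr17:12682406-12769664, minus strand) had 1674, 1434, 1647 and 1806 in the same controls and 1656, 1816 and 1703 in the mutants. Its log2 fold change was 0.07 (SE 0.09). Mutants 5 and 13 lay among the controls and mutant 12 just above the highest of them.

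**Figure D2:**
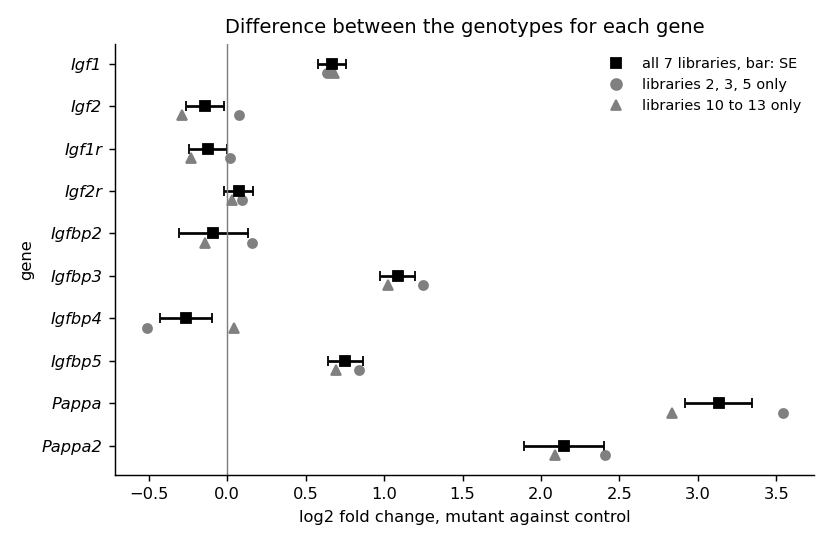
Log2 fold change of each gene, mutant against control, from all 7 libraries (squares, bars give the SE) and within each run of library numbers (circles for libraries 2, 3 and 5, triangles for libraries 10 to 13). The 5 called genes lie between 0.67 and 3.13 and are above 0 in both runs, while Igf1r, Igf2, Igfbp2 and Igfbp4 have opposite signs in the 2 runs.

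Levels of different genes were compared as CPM divided by the length of the merged exons in kilobases. In controls the order from the top was Igfbp5 with 32.2 ± 3.85 (SD, n = 4), Igfbp4 with 27.3 ± 6.38, Igfbp2 with 26.3 ± 5.07 and Igf2 with 20.3 ± 2.33. Each of these neighbours overlapped the next over the 4 libraries. Below them came Igfbp3 at 6.27 ± 0.447, apart from all others, and then the receptors Igf2r at 4.88 ± 0.458 and Igf1r at 4.54 ± 0.643, which overlapped. Igf1 was at 1.48 ± 0.0681, Pappa2 at 0.379 ± 0.0868 and Pappa at 0.082 ± 0.022, with no overlap between these 3. In mutants Igfbp5 stood alone at 54.2 ± 4.09 (SD, n = 3). Igfbp3 was at 13.3 ± 1.93 per kilobase without reaching the lowest Igf2 library, and Pappa at 0.722 ± 0.0643 was still the lowest of the 10. With the length of the longest transcript in place of merged exons, Igfbp2 came first in controls at 37.2.

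Igfbp5 and Igfbp3 took a larger share of the binding protein RNA in mutants than in controls, given here as a description. Igfbp1 to Igfbp6 together came to 101 ± 8.23 CPM per kilobase in controls (SD, n = 4) and 127 ± 12.2 in mutants (SD, n = 3), and the lowest mutant, at 117, was above the highest control, at 111. Igfbp5 held 31.9% ± 4.36 of that sum in controls and 42.8% ± 2.94 in mutants, and Igfbp3 held 6.2% ± 0.413 and 10.5% ± 0.853. Igfbp4 went from 26.7% ± 4.67 to 18.0% ± 1.55 of the sum, while its own level was not called and the sum was larger. The share of Igfbp2 was 25.8% ± 2.88 and 19.2% ± 4.69, and that of Igfbp6 was 9.35% ± 3.35 and 9.34% ± 1.16. Among the ligands, Igf1 made up 6.88% ± 1.03 of the Igf1 and Igf2 sum in controls and 11.5% ± 1.86 in mutants, and Igf2 held the rest. Of the pappalysin sum, Pappa held 18.4% ± 6.76 in controls and 31.1% ± 5.65 in mutants, and the sum itself went from 0.461 ± 0.0755 to 2.4 ± 0.647. These are shares of RNA per length and not of protein.

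**Figure D3:**
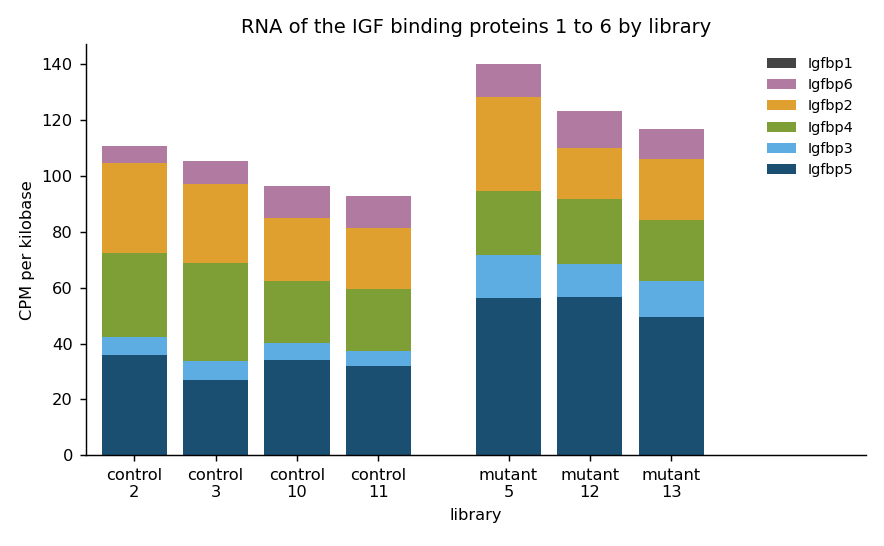
Stacked CPM per kilobase of Igfbp1 to Igfbp6 in each library, controls on the left and mutants on the right. Sums run from 93.0 to 111 in controls and from 117 to 140 in mutants, and Igfbp5 is the largest part of every mutant bar.

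The library numbers fall into a run of 2, 3 and 5 and a run of 10 to 13, each with both genotypes, and this difference played no part in choosing the genes. With the genotype in the model, edgeR called 2 of the 10 genes between the runs, beside 14.7% of all tested genes. Igfbp2 was lower in libraries 10 to 13 than in 2, 3 and 5 by a log2 difference of -0.58 (SE 0.09, edgeR adjusted p = 0.0068), with means of 1389 and 2083. Pappa2 was lower by -0.63 (SE 0.14, edgeR adjusted p = 0.0188), with means of 304 and 395. The means of both genes are over both genotypes, which the runs hold in unequal parts, and are not adjusted for genotype. For Pappa2 they therefore do not give the fitted difference. Within controls alone the log2 difference was -0.46 for Igfbp2 and -0.49 for Pappa2. The run difference of Pappa2 was in both genotypes, since controls 10 and 11 were below controls 2 and 3 and mutants 12 and 13 below mutant 5. Igfbp4 had a log2 difference of -0.35 (SE 0.12, adjusted p = 0.0859), and Igfbp3 of -0.21 (SE 0.08, adjusted p = 0.123). Neither passed the threshold. The other 6 genes lay between 0.00 and 0.19, with the smallest adjusted p, 0.295, for Igf2r. What the run of numbers stands for is not stated in the labels.

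**Figure D4:**
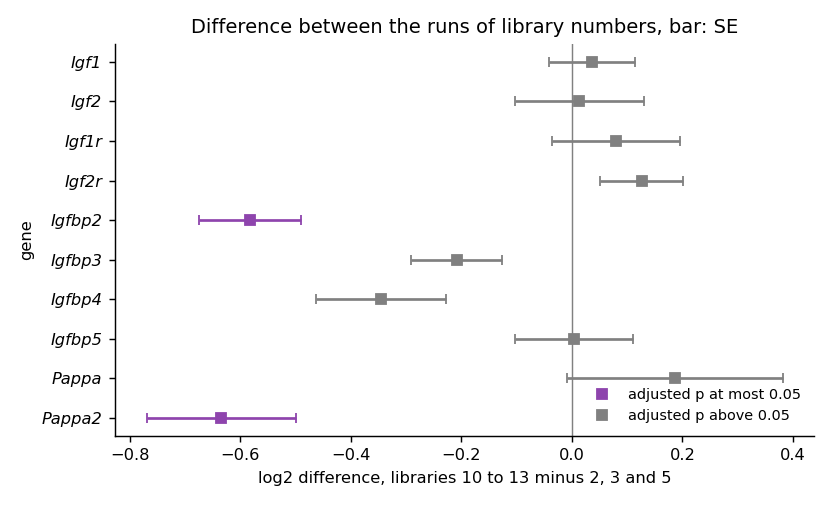
Log2 difference of each gene between libraries 10 to 13 and libraries 2, 3 and 5 with genotype in the model (squares, bars give the SE), purple where edgeR's adjusted p was at most 0.05. Igfbp2 at -0.58 and Pappa2 at -0.63 are the 2 genes past the threshold.

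Outside the set, 70 further genes of the insulin and IGF pathway were read in 7 lists. Of the 63 tested, 3 were higher in mutants, 1 was lower and 59 did not pass, and their median log2 fold change was 0.03. So 6.35% were called beside 4.85% of all tested genes. That background is for edgeR's fit on genotype alone, which called 954 genes in all. Limma-voom called 963, DESeq2 1731 and edgeR with a term for the run of library numbers 2205. No background is given for an unadjusted p, so list counts at that rule are a description only. None of the 26 genes of the PI3K, AKT and mTOR arm passed in edgeR's fit (median log2 fold change -0.004), where 3 had an unadjusted p of at most 0.05, DESeq2 called 3 and limma-voom 0. With a term for the run of library numbers edgeR called 3, namely Pik3r3 (higher) and Pik3cd and Foxo3 (lower). None of the 16 receptor adaptors passed in the fit on genotype alone (median 0.03), with 3 at an unadjusted p of at most 0.05, 1 called by DESeq2 and 0 by limma-voom. With the term for the run edgeR called 2 of them, Gab2 (higher) and Grb14 (lower). These 5 names were added after their values were seen. Ptpn11, the tyrosine phosphatase with the most counts among the adaptors, had a log2 fold change of 0.02 (SE 0.08, edgeR adjusted p = 0.947).

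Other extracellular parts of the pathway held the 3 increases. Igfbp7, which encodes a related binder with low affinity for IGFs, had 990, 837, 963 and 1083 normalised counts in the controls and 1785, 1553 and 1754 in the mutants. The groups did not overlap, and the log2 fold change was 0.81 (SE 0.10, edgeR adjusted p = 0.00394). Htra1, which encodes a secreted serine protease, had 7301, 7270, 7215 and 6812 in controls and 9116, 8683 and 9022 in mutants. Its log2 fold change was 0.32 (SE 0.07, edgeR adjusted p = 0.0397), and it passed the threshold in 1 of the 7 fits that left out 1 library: it was lost without control library 2 (adjusted p = 0.0715), 10 (0.106) or 11 (0.108) and without mutant library 5 (0.122), 12 (0.114) or 13 (0.174). Igfbp7 and Htra1 were 2 of the 5 tested genes in the list of other binding proteins and related binders. Htra1 was read in that list although it encodes a protease. Among 7 tested inhibitors of pappalysins and other proteases, Adamts1, a secreted metalloprotease, was the 1 called by edgeR and by limma-voom, with 3 genes at an unadjusted edgeR p of at most 0.05. DESeq2 called 2, the other being Plat (tissue plasminogen activator), and edgeR with a term for the run of library numbers called 3, adding Plat and Stc2.

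Adamts1 had 421, 352, 430 and 385 normalised counts in the controls and 874, 1772 and 974 in the mutants. Mutant library 12 stood far above the other mutants, all of which were above the controls. The log2 fold change was 1.60 (SE 0.23, edgeR adjusted p = 0.00704), and 1.22 without mutant library 12. Stc1 and Stc2, which encode stanniocalcins known to inhibit the pappalysins, did not pass the threshold in the fit on genotype alone. Stc1 had 164 ± 28.4 in controls and 139 ± 24.1 in mutants (edgeR adjusted p = 0.602). Stc2 had 117 ± 32.8 and 202 ± 64.9 (edgeR adjusted p = 0.159), and in the fit that also held a term for the run it was called higher (edgeR adjusted p = 0.00526). The names of Plat, Stc1 and Stc2 were added after their values were seen.

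In the list of ligands of the growth hormone and IGF axis, 3 of 7 genes had enough counts, and Sst was the 1 gene lower. Sst encodes somatostatin, known for holding back growth hormone release and, in the cortex, as the peptide of a class of MGE-derived interneurons. It had 5964, 6248, 4649 and 4565 normalised counts in the controls and 670, 554 and 542 in the mutants. The log2 fold change was -3.19 (SE 0.16, edgeR adjusted p = 6.37e-05). Insr, the insulin receptor gene, had 1797 ± 114 in controls and 1944 ± 50.8 in mutants (log2 fold change 0.11, SE 0.08, edgeR adjusted p = 0.507), and neither of the 2 tested receptors passed, at an unadjusted p or with DESeq2 or limma-voom either. Among the 4 tested genes for RNA-binding proteins of Igf2 and H19, 0 passed by any of these counts, and Igf2bp3, with the most counts, had a log2 fold change of -0.04 (SE 0.20, edgeR adjusted p = 0.952).

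**Figure D5:**
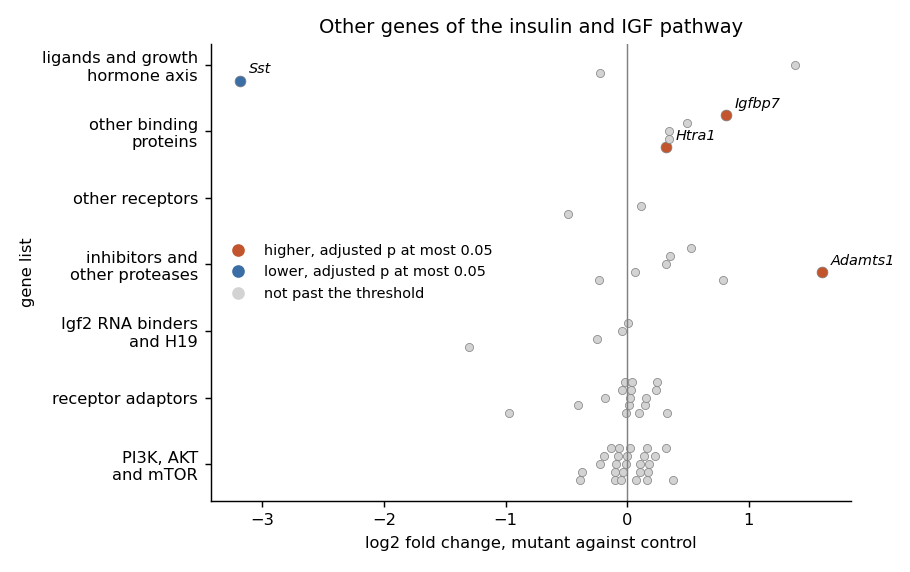
Log2 fold change, mutant against control, of the 63 tested pathway genes outside the set, by list (points are spread vertically only to separate them). Sst lies lowest at -3.19, Adamts1, Igfbp7 and Htra1 are the genes called higher in the fit on genotype alone, and the other 59 did not pass the threshold.

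For each of the 10 genes, the gene whose pattern over the 7 libraries was most like it was found among 13449 other genes with a mean of at least 100 counts, by the root mean square difference of centred log2 CPM. For the called genes this measure includes the genotype difference itself. Igfbp3 was nearest to the intermediate filament gene Vim at 0.0543, whose counts were 1411, 1689, 1534 and 1390 in controls and 3712, 2864 and 3276 in mutants. Vim too was highest in mutant library 5 and lowest of the mutants in library 12. Igfbp5 was nearest to Syk, which encodes a tyrosine kinase, at 0.0835. The pappalysins had the largest distances of the 10: Pappa was nearest to Gldn at 0.307, and Pappa2 to Myh8 at 0.229. In controls Pappa had 22.1 to 42.7 normalised counts and Gldn 26.1 to 48.9. Counting noise widens this measure at such low counts, so a lack of similar genes cannot be read from it. The 5 genes that were not called had nearest genes at 0.0231 to 0.0753, namely Nacc1 for Igf2r, Brpf3 for Igf1r, Il16 for Igf2, Krt10 for Igfbp4 and Cep164 for Igfbp2.

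Levels of marker lists are given beside these genes as sums, which the genes with the most counts dominate, and the lists themselves were not tested. List counts by DESeq2 and with the term for the run stand beside 1731 and 2205 genes called in all. Those at an unadjusted p have no such background here. Endothelial markers summed to 9212 to 10404 normalised counts in controls and 11245 to 12648 in mutants, with 0 of 7 genes called by edgeR, 4 at an unadjusted p of at most 0.05, 2 by DESeq2, 0 by limma-voom and 4 by edgeR with the term for the run. Mural cell markers summed to 8960 to 9888 and 10367 to 12221, with 1 of 7 higher, the smooth muscle gene Tagln (log2 fold change 1.10, SE 0.21, edgeR adjusted p = 0.0233), while 3 were at an unadjusted p of at most 0.05, 3 called by DESeq2, 1 by limma-voom and 3 by edgeR with the term for the run. Astrocyte markers summed to 189542 to 283154 and 314988 to 368287, with 1 of 8 higher, the intermediate filament gene Gfap (log2 fold change 1.95, SE 0.10, edgeR adjusted p = 7.41e-05), while 4 were at an unadjusted p of at most 0.05, 3 called by DESeq2, 1 by limma-voom and 3 by edgeR with the term for the run. None of these 3 sums overlapped between the genotypes, and neither did the microglial, oligodendrocyte and interneuron sums that follow. How often sums of other gene lists do so was not tested. Microglial markers summed to 13172 to 13337 and 11022 to 12960, with 0 of 7 called by any of the 3 tools, 1 by edgeR with the term for the run and 2 at an unadjusted edgeR p, and oligodendrocyte markers to 234093 to 301285 and 167771 to 206215, with 3 of 6 lower by edgeR, and 6 called with the term for the run.

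Markers of MGE-derived interneurons summed to 16159 to 17847 in controls and 8509 to 9557 in mutants, with 5 of 8 lower. DESeq2 and limma-voom each called 5, edgeR with the term for the run called 6, and 6 were at an unadjusted edgeR p. Sst had means of 5356 and 588. Nkx2-1 went the other way without overlap, from 29.7 ± 14.6 to 60.7 ± 8.45 (log2 fold change 1.03, SE 0.38, edgeR adjusted p = 0.191). Sox6 and Satb1, also not called, were at -0.30 and -0.16. Markers of interneurons derived from the caudal ganglionic eminence (CGE) summed to 17011 to 18962 and 26123 to 26885. Of the 9 genes 4 were higher, namely Vip, Adarb2, Cck and Ndnf. Cck held the largest part of the sum, with means of 7511 in controls and 13686 in mutants. Of the genes not called, Calb2 had a log2 fold change of -0.57 and Prox1 of -0.07. Reln was at 0.11, Htr3a at 0.37 and Sp8 at 0.61. The names of genes not called in the MGE and CGE lists were added after their values were seen. No marker of these 7 lists was at 0 in any library. The part of any of these cell types in the levels of Igf1, Igfbp3, Igfbp5, Pappa or Pappa2 was not tested.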

How the data were processed

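RNA of 7 pools of P15 forebrain was sequenced as 36-base single reads. The authors trimmed reads with cutadapt 1.9.1, mapped them with Bowtie2 2.2.9 on transcripts of Ensembl 84 (GRCm38) and deposited expected counts per gene from RSEM 1.2.31, without normalization. RSEM divides a read among the genes it matches, so 32.9% to 36.0% of values in a library were not whole, and genes sharing sequence are less certain. The authors also deposited the DESeq2 comparison of the genotypes (fold changes, standard errors, p-values), which was not used. Its gene name column and the deposited exon annotation gave names, positions and lengths, which had equal names for 100% of genes. Per-sample columns not used numbered 0.

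Expected counts were rounded. The 19684 genes reaching 10 counts in 3 or more libraries were normalised by TMM and tested with edgeR 4.0.16 (R 4.3.3) by the quasi-likelihood F-test on genotype, two-sided, with Benjamini-Hochberg adjustment over all tested genes and a threshold of 0.05. The SE is the size of the log2 fold change divided by the root of F. Values within a run of library numbers are log2 ratios of mean normalised counts. A fit with genotype and run gave the run differences. Replicates were compared first: the chi-square per degree of freedom was 10.2 to 72.6, so no pair agreed within sampling noise. The script was tested on simulated counts. RefSeq windows were matched by symbol and searched on both strands.

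The 10 genes and all lists were chosen with earlier results of these data known. Genes named are the 10, list genes past the threshold (up to 4 a list) or else the one with most counts, the nearest gene by pattern, neighbours and overlapping genes, Lhx6 and markers that moved; 2 genes that this rule names are not reported here. Alternatives were RLE factors, 2 other filters, the run as covariate, limma-voom (limma 3.58.1), DESeq2 1.42.0, each library left out, other gene lengths and a prior count of 0.5 in place of 2.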

Additional observations from a re-analysis of the deposited data

How the results depend on the processing

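The IGF genes were chosen on this contrast in these libraries, so their calls under other settings describe the settings and are no support for the differences. The same 5 genes were called in each of the 13 alternative fits. Their log2 fold changes ranged from 0.63 to 0.70 for Igf1, 0.98 to 1.17 for Igfbp3, 0.68 to 0.81 for Igfbp5, 2.99 to 3.30 for Pappa and 1.84 to 2.34 for Pappa2. Igfbp2 ranged from -0.38 to 0.09 and changed sign, to 0.02 without control library 2 and 0.086 without mutant library 12, and was past the threshold in neither. The log2 difference of Pappa within libraries 2, 3 and 5 was 3.54. Over all genes the number called was 954, and it moved to 2205 with a term for the library number run and 1731 with DESeq2. Among the pathway genes outside the set, those called higher and lower went from 3 and 1 to 7 and 4 with that term and to 5 and 4 with DESeq2. Leaving out 1 library at a time called 302 to 971 genes in all, 5 of the 10 IGF genes higher and 0 lower each time, and 2 to 4 pathway genes higher and 1 lower. Of these, only the fits without control library 2 (679) and control library 3 (971) stayed within 1.5 times the full count; it was 513 without control library 10, 589 without 11, and 458, 387 and 302 without mutant library 5, 12 and 13. Those fits hold fewer samples. The cause of the other changes was not tested. With the longest transcript as length, control levels per kilobase moved to 37.2 for Igfbp2, 24.6 for Igf2, 8.11 for Igfbp3, 6.68 for Igf1r and 2.08 for Igf1. The gene nearest to Igf2 became Yeats2, at 0.0604, with a prior count of 0.5. The paper calls the controls littermates of the mutants. No paired analysis was possible because the columns of the count table carry a library number and no replicate number or litter. At 3 or 4 pools a group, small differences of the 5 genes that were not called could not be detected, and no absence of change is shown.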
